A study of Homo sapiens with 16 samples.

Results

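A set of 52 genes of the lysosome, its proton pump (the V-ATPase) and autophagy was examined in chromatin immunoprecipitation sequencing (ChIP-seq) peak lists from A375, an established human melanoma cell line. The genes were chosen for their function, with earlier results of these data known. They are 52 of the 19970 protein-coding genes on chromosomes 1 to 22 and X in the RefSeq table of GRCh38. Cells were starved for 2 h and then held for 2 h with 10 ng/mL TGFB1 (transforming growth factor beta 1) or with a vehicle of 4 mM HCl and 1 mg/mL BSA. Each treatment had 1 library and 1 peak list for MITF (the pigment cell lineage factor), SMAD2/3 (the receptor-activated factors of the TGF-beta pathway), ATF3 and JUNB (factors of the AP-1 superfamily) and H3K27ac (a histone mark of active promoters and enhancers). Each pair of libraries shared its date, and across antibodies there were 3 dates, with SMAD2/3 and H3K27ac on one, MITF on its own and ATF3 and JUNB on the last. With 1 library per antibody and treatment no difference has a replicate check, so no p-value was computed between libraries. Ranges in parentheses after a share of genes or peaks are 95% Wilson intervals, which cover counting error only.

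A gene was counted as bound, or marked, when the summit of a peak lay in the gene body or within 10 kb of it. The members had a median length of 25.3 kb (3.34 to 329.0 kb), against 24.2 kb for the 19918 other protein-coding genes. Each share was set beside that of all other genes and beside that of other genes of similar length, meaning the share in 10 length classes weighted by the members in each class. Sequencing depth, as implied by the peak values, was 7.4 M reads with TGFB1 and 7.39 M in vehicle for MITF, and 10.2 M and 9.37 M for SMAD2/3. It was 28.1 M and 6.37 M for ATF3, 47.7 M and 34.1 M for JUNB, and 23.2 M and 21.5 M for H3K27ac. The ATF3 pair thus differed 4.41-fold in depth, and ATF3 counts with TGFB1 and in vehicle cannot be told apart from it.

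MITF belongs with TFEB, TFE3 and TFEC to the MiT/TFE family of basic helix-loop-helix leucine zipper factors, which bind the E-box letters CACGTG and close variants. TFEB and TFE3 are known to drive lysosome and autophagy genes through a longer E-box palindrome called the CLEAR element. Both are held in the cytoplasm when amino acids are plentiful, and whether this holds for MITF in these cells was not examined. The Rag GTPases (RRAGC and RRAGD among them) recruit TFEB, TFE3 and the kinase mTORC1 to the lysosome surface. Folliculin (FLCN) with its partners FNIP1 and FNIP2 acts on the Rag proteins as a GTPase-activating complex.

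The promoters that carried the strongest MITF binding near a gene start are shown first. In most of them, though not in FLCN and FNIP1, E-box letters lie beside the MITF summits described below. RefSeq promoter windows (GRCh38.p14, 250 bases before the start to 50 after) were at hand for 34 of the 52 genes. Of these, 15 had a MITF summit within 250 bp of the start with TGFB1 and in vehicle, and the 8 with the highest -log10 p are given 5′ to 3′ on the gene strand. Capitals mark CACGTG, which reads the same on both strands, and the variant CATGTG or its reverse complement CACATG. LAMP1 is the window chr13:113296989-113297288 on the plus strand and FNIP1 the window chr5:131796968-131797267 on the minus strand, both in full. The others are 120 bases around the MITF summit: RRAGC on the minus strand (chr1:38859840-38859959), MCOLN1 on the plus strand (chr19:7522554-7522673), FLCN on the minus strand (chr17:17237169-17237288), GALNS on the minus strand (chr16:88857029-88857148), CLCN7 on the minus strand (chr16:1475014-1475133) and ATP6V1G1 on the plus strand (chr9:114587665-114587784).
LAMP1: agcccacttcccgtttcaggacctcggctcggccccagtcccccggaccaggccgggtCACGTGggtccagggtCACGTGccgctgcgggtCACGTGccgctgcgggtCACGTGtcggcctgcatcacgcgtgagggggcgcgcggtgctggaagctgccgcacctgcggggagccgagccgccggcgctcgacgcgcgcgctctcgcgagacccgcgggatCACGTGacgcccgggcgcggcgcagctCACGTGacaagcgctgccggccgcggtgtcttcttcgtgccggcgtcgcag
RRAGC: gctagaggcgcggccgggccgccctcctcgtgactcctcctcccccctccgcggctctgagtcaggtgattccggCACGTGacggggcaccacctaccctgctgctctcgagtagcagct
MCOLN1: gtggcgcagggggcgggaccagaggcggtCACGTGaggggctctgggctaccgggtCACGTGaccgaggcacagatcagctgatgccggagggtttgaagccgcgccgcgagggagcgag
FLCN: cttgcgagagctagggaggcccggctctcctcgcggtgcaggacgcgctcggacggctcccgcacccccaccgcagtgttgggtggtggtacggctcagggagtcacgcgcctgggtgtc
FNIP1: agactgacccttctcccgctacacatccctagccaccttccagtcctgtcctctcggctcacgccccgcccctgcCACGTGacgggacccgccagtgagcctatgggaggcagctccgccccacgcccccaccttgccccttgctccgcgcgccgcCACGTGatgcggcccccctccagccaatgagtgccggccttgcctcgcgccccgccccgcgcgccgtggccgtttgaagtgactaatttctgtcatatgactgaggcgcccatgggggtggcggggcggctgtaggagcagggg
GALNS: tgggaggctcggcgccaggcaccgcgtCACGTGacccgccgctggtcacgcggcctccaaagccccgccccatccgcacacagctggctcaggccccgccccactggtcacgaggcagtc
CLCN7: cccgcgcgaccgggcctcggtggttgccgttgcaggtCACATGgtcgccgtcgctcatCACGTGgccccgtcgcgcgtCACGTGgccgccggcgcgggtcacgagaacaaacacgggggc
ATP6V1G1: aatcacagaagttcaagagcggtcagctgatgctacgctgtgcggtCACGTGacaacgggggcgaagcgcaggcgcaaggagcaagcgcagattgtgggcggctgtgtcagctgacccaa

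LAMP1, which encodes the most abundant glycoprotein of the lysosome membrane, held 6 copies of CACGTG in its window. Counting the start base as 0, their first letters stood at -192, -176, -159, -142, -28 and -1. The MITF summit lay at -123 with TGFB1 and at -137 in vehicle, 16 and 2 bp from the centre of the nearest copy. MCOLN1, CLCN7, GALNS and FNIP1 held 2 copies each in their windows, and RRAGC and ATP6V1G1 held 1. The second copy of GALNS, at -32, lies outside the bases shown. FLCN held neither form of the letters in its 300 bases, although its summits lay at -60 with TGFB1 and at -54 in vehicle.

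The largest gap between the lysosome set and other genes was in MITF. A MITF summit was present at 35 of 52 genes with TGFB1 (67.3%, 53.8 to 78.5%) and at 37 in vehicle (71.2%, 57.7 to 81.7%). Among other protein-coding genes the shares were 21.6% with TGFB1 and 23.1% in vehicle, and among those of similar length 21.9% and 23.5%. Restricted to genes with vehicle H3K27ac within 1 kb of a gene end, which 49 members had, the members' shares were 69.4% with TGFB1 and 73.5% in vehicle, against 27.8% and 29.9% of other acetylated genes of similar length. The median member had 1 MITF summit in each list and the median other gene 0. Windows of neighbouring genes can hold the same peak: 19 of the 45 MITF peaks at members with TGFB1, and 22 of 50 in vehicle, had no other protein-coding gene within 10 kb. When each summit was credited to its nearest gene alone, 30 members (57.7%) with TGFB1 and 32 (61.5%) in vehicle had one, against 16.0% and 17.2% of other genes.

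**Figure D1:**
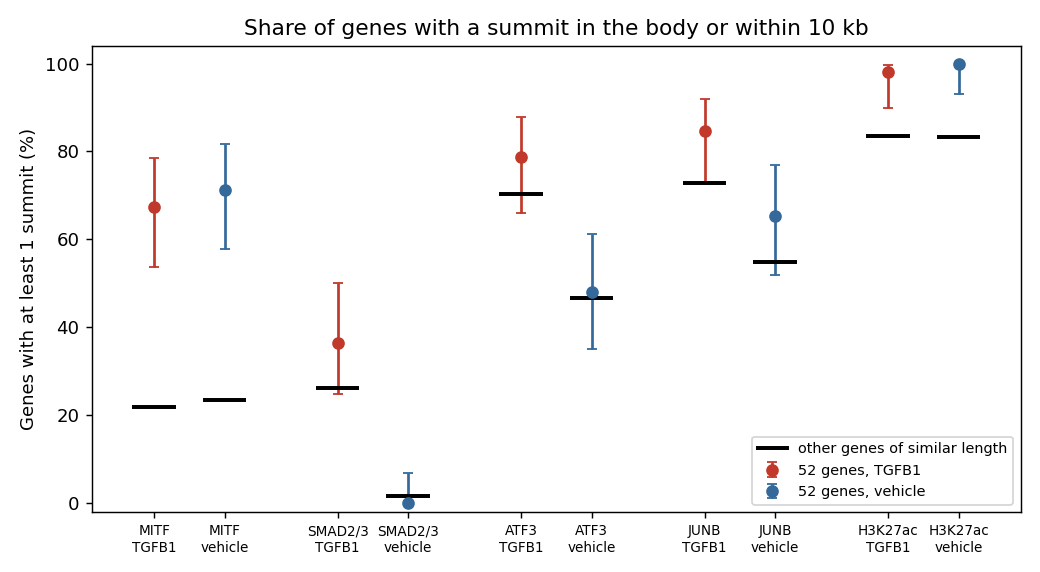
Share of genes (%) with at least 1 summit in the body or within 10 kb, for each antibody and treatment (1 library each); points are the 52 lysosome, V-ATPase and autophagy genes with 95% Wilson intervals and black bars are other genes of similar length. The MITF points, at 67.3% with TGFB1 and 71.2% in vehicle, lie far above their bars at 21.9% and 23.5%, while the SMAD2/3, ATF3 and JUNB intervals include theirs.

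The other antibodies set the members apart less. SMAD2/3 lay at 19 members with TGFB1 (36.5%, 24.8 to 50.1%) and at none in vehicle (0 to 6.88%), where other genes had 28.2% and 1.78%. ATF3 lay at 41 members with TGFB1 (78.8%, 66.0 to 87.8%) and at 25 in vehicle (48.1%, 35.1 to 61.3%), beside 70.1% and 48.8% of other genes. JUNB lay at 44 with TGFB1 (84.6%, 72.5 to 92%) and at 34 in vehicle (65.4%, 51.8 to 76.8%), beside 72.4% and 55.9%. H3K27ac marked 51 members with TGFB1 (98.1%) and all 52 in vehicle, beside 80.9% and 80.7% of other genes. The members' intervals, 89.9 to 99.7% with TGFB1 and 93.1 to 100% in vehicle, lay above these and above other genes of similar length (83.4% and 83.2%). Other genes with a vehicle H3K27ac summit near an end reached 99.6% with TGFB1. They were chosen by this mark, so for H3K27ac they give no comparison.

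Every role group held MITF, though in unequal parts. MITF was at 5 of 9 lysosome membrane and lumen proteins in each list, at 5 of 8 proteases with TGFB1 and 6 in vehicle, and at 9 of 11 other hydrolases and their activator in each list. The V-ATPase hydrolyses ATP in its V1 sector to pump protons through its membrane sector V0. MITF was at 4 of 7 genes of V0 and its accessory protein with TGFB1 and 5 in vehicle, and at 5 of 7 V1 genes in each list. It was at 3 of 5 autophagy genes and at 4 of 5 genes of Rag and folliculin signalling in each list. These groups are small, and their order was not tested.

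**Figure D2:**
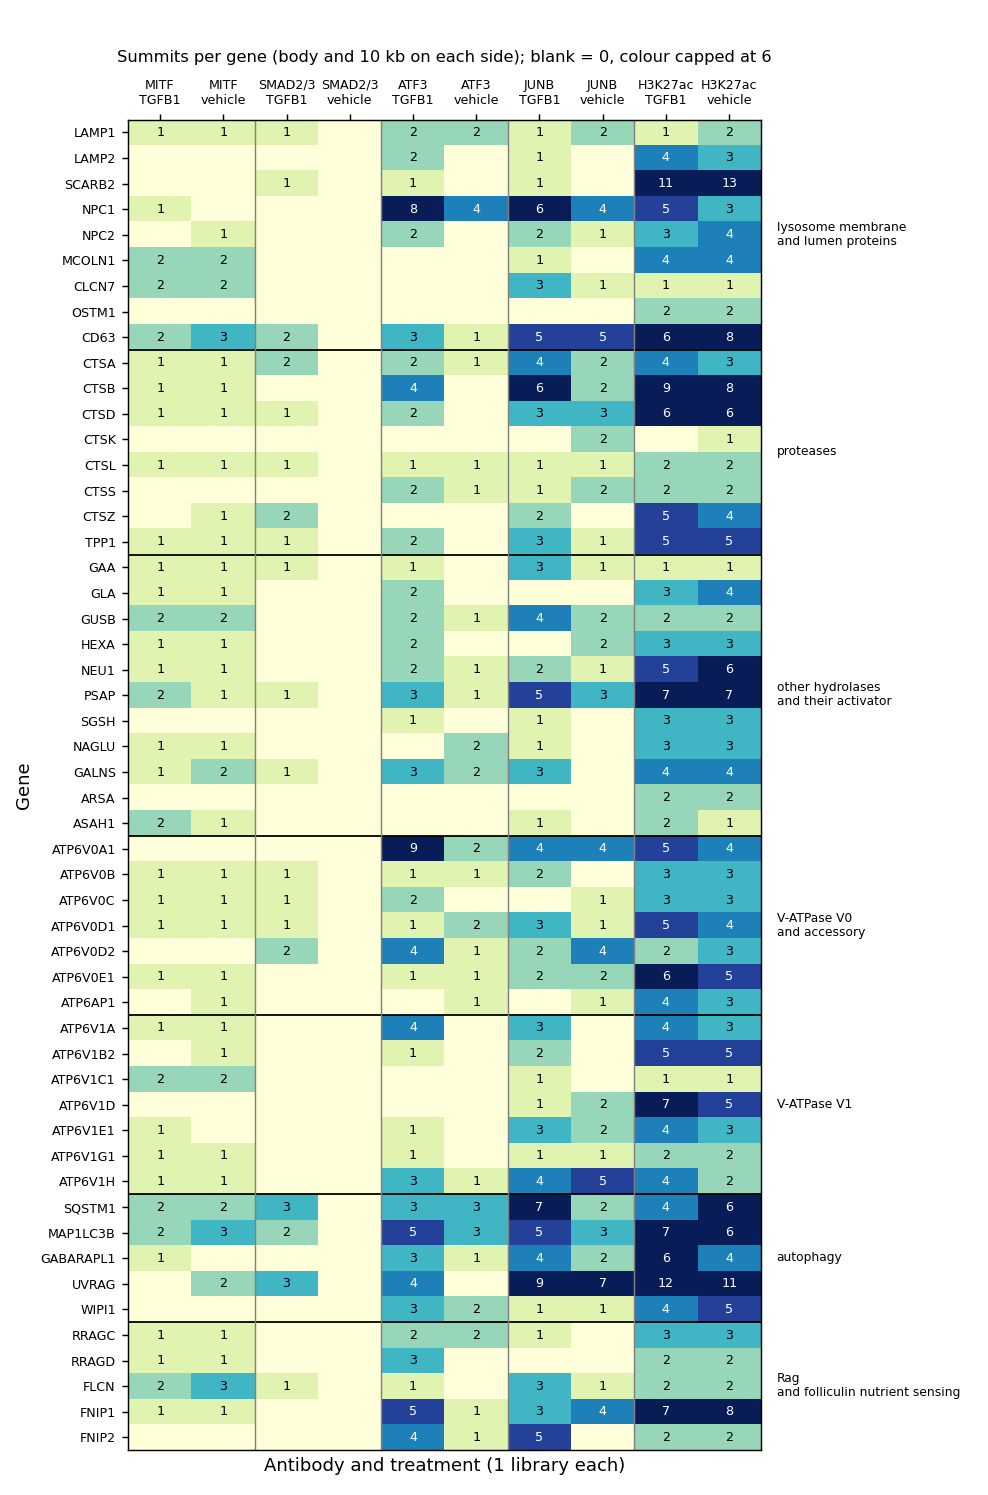
Number of summits in the body or within 10 kb of each of the 52 genes (rows, by role) in each of the 10 peak lists (columns, TGFB1 left of vehicle; 1 library each); blank cells are 0. MITF columns are filled for 35 genes with TGFB1 and 37 in vehicle, the SMAD2/3 column for 19 with TGFB1 and none in vehicle.

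Fold enrichment and -log10 p below are the authors' own values of single peaks, and they rank peaks within one list. Between lists they are set side by side without comparison. Among membrane proteins, the LAMP1 promoter peak had the highest -log10 p of the whole set in each list. With TGFB1 it covered chr13:113296942-113297419 with a fold enrichment of 35.2 and a -log10 p of 126, ranking 53 of 5037 peaks. In vehicle it covered chr13:113296927-113297373 with 34.3 and 118, ranking 72 of 5695. MCOLN1, the lysosomal calcium channel TRPML1, had 15.0 and 39.7 with TGFB1 and 10.2 and 31.7 in vehicle, at -10 and -52 bp from its start. CLCN7, the chloride-proton exchanger of the lysosome, had 14.2 and 34.2 with TGFB1, and 9.40 and 22.6 in vehicle. CD63, a tetraspanin of late endosomes, had its highest peak 13 kb downstream of its start, with 8.90 and 22.2 with TGFB1 and 17 and 39.6 in vehicle. The windows of BLOC1S1, ITGA7 and RDH5 hold that peak too. A second CD63 peak, at the start, had 6.8 and 13.8 with TGFB1 and 10.6 and 22.5 in vehicle.

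In the autophagy group SQSTM1, the selective autophagy receptor p62, held the second-ranking MITF peak of the set. It lay inside the gene, 12.7 kb from the start, away from the promoter window. With TGFB1 it covered chr5:179818857-179819271 with a fold enrichment of 27.3 and a -log10 p of 109 (rank 60), and in vehicle chr5:179818816-179819299 with 35.9 and 113 (rank 74). No SQSTM1 promoter summit was listed for MITF, and its promoter window held no CACGTG. Among the nutrient-sensing genes RRAGC had 13.5 and 40.6 with TGFB1 and 29.7 and 71.4 in vehicle, in a promoter region that is also within 10 kb of MYCBP. FNIP1 had 13.5 and 35.7 with TGFB1, and 9.22 and 21.1 in vehicle. FLCN had 10.0 and 30.7 with TGFB1 and 12.2 and 37.2 in vehicle at its start, and a further peak about 30.8 kb from it, beside PLD6, in each list. RRAGD, also a Rag GTPase, had 9.80 and 17.5 with TGFB1 and 7.89 and 12.3 in vehicle, at a gene end.

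Hydrolases and the V1 sector supplied the rest of the 12 members with the strongest MITF peaks in each list. HEXA, the alpha subunit of beta-hexosaminidase, had 12.9 and 38 with TGFB1 and 16.9 and 41.5 in vehicle, 0.046 and 0.044 kb from a gene end. GALNS and NAGLU, which degrade glycosaminoglycans, followed. GALNS had 10.1 and 35.6 with TGFB1 and 14 and 35.2 in vehicle. NAGLU had 11.8 and 27.4 with TGFB1 and 13.4 and 27.1 in vehicle. Each of these peaks was called in both lists at the same place. ATP6V1C1, subunit C of V1, had its stronger peak 18.5 kb inside the gene, at 16.3 and 34.5 with TGFB1 and 17.9 and 36.2 in vehicle, without H3K27ac in either treatment. Its weaker peak lay at the gene end, 0.041 kb into the gene with TGFB1 and 0.021 kb in vehicle. ATP6V1G1, subunit G, had 11.0 and 26.7 with TGFB1 and 10.1 and 22.2 in vehicle at its start.

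**Figure D3:**
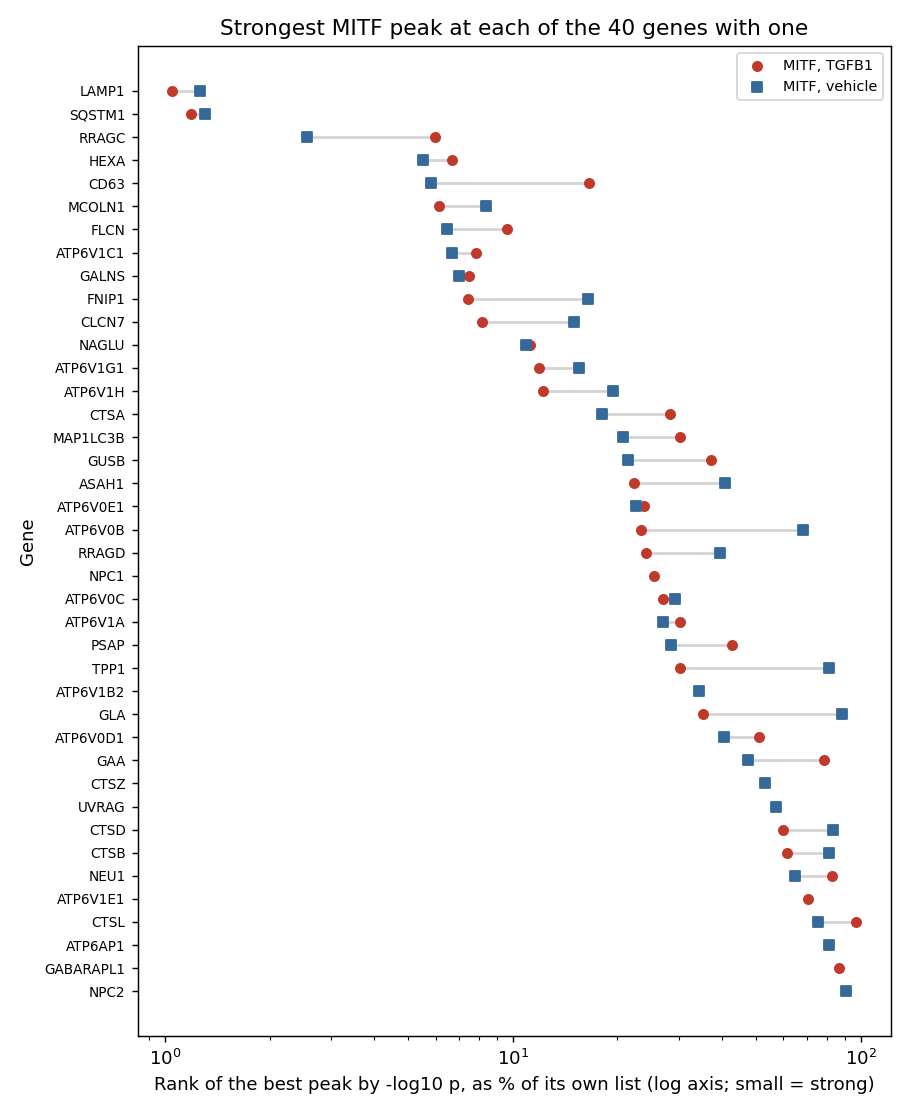
Rank of the strongest MITF peak of each of the 40 genes with one, as a percentage of its own list (log axis; small is strong), with TGFB1 (circles) and in vehicle (squares); 1 library each, and grey lines join the values of 1 gene. LAMP1 and SQSTM1 sit near 1% in each list; ranks come from lists of 5037 and 5695 peaks and do not measure change.

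MITF peaks at the members were, as a group, nearer to gene ends than the list they came from. Of the 45 peaks with TGFB1, 33 (73.3%) had their summit within 1 kb of a protein-coding gene start, or gene end where no start was known, and of the 50 in vehicle 39 (78.0%) did. The whole lists had 36.2% with TGFB1 and 36.4% in vehicle. Members' peaks were taken from gene windows only and the lists from the whole genome, which by itself raises the share near ends. The other antibodies shifted likewise with TGFB1. SMAD2/3 had 50.0% at members and 19.2% in its list, ATF3 27.8% and 6.7%, JUNB 35.7% and 9.4%, and H3K27ac 42.3% and 17.9%. Members' MITF peaks had a median fold enrichment of 8.24 with TGFB1 and 8.65 in vehicle, beside 6.68 and 6.38 for the lists. They lay on H3K27ac in 40 of 45 cases with TGFB1 (88.9%, 76.5 to 95.2%) and 45 of 50 in vehicle (90.0%, 78.6 to 95.7%), beside 68.1% and 62.2% of the lists. The part of the gene windows in these gaps was not tested.

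The gap was also seen at known gene starts. A MITF summit lay within 1 kb of the start at 21 of 34 members with TGFB1 (61.8%, 45.0 to 76.1%) and at 19 in vehicle (55.9%, 39.5 to 71.1%). Other genes had 10.7% with TGFB1 and 12% in vehicle, and other genes with acetylated starts 16.3% and 18.1%. All 34 member starts had vehicle H3K27ac within 1 kb. SMAD2/3 lay that near to 9 of 34 starts with TGFB1 (26.5%, 14.6 to 43.1%), beside 11.2% of other genes and 16.8% of those with acetylated starts, and to none in vehicle, beside 0.475% of other genes. JUNB did so at 20 with TGFB1 (58.8%, 42.2 to 73.6%) and 11 in vehicle (32.4%, 19.1 to 49.2%), beside 29.8% and 13.8% of other genes and 43.1% and 19.7% of those with acetylated starts. ATF3 did so at 14 with TGFB1 (41.2%, 26.4 to 57.8%) and 4 in vehicle (11.8%, 4.67 to 26.6%), beside 21.2% and 8.30% of other genes and 30.2% and 11.6% of those with acetylated starts. Set beside genes with acetylated starts, the interval of the members within 1 kb lay wholly above for MITF in each list. It included the other genes' share for SMAD2/3, JUNB and ATF3. For JUNB this depended on the window. Within 500 bp its intervals lay above, at 42.2 to 73.6% against 36.0% with TGFB1 and 19.1 to 49.2% against 15.5% in vehicle. Those of SMAD2/3 and ATF3 still included the other genes' share.

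The E-box letters were also more frequent in the members' promoter windows. CACGTG stood in 14 of 34 windows (41.2%, 26.4 to 57.8%), against 8.80% of other promoters of the same length, 8.87% of all promoters and 10.6% of other promoters with acetylated starts. The 7 letters TCACGTG, searched on both strands and always containing CACGTG, stood in 13 windows (38.2%), against 4.72% of other promoters. The CLEAR palindrome of 10 letters, which also contains CACGTG, stood in 4 windows (11.8%), those of ATP6V1G1, GAA, GALNS and MCOLN1, against 0.545%. The variant CATGTG, on both strands, stood in 5 windows (14.7%), against 8.42%, and was far less set apart. The AP-1 letters TGACTCA, on both strands, stood in 2 windows (5.88%), of CD63 and RRAGC, against 3.66%. A match describes letters and is not evidence of a bound site.

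At the members, MITF was nearly always found where the letters were. Of the 14 member windows with CACGTG, 13 (92.9%, 68.5 to 98.7%) held a MITF summit in both lists, against 14.5% of 1389 other promoters with the letters and 18.7% of those with acetylated starts. Of the 20 member windows without the letters 2 (10.0%, 2.79 to 30.1%) did, against 2.22% of other promoters without them. The exception among the 14 was CTSD, the aspartic protease cathepsin D, whose TGFB1 summit lay 64 bp after the start, outside the window, and which had no vehicle summit there. Seen from the other side, 13 of the 15 members with a MITF summit in the window in both lists held CACGTG (86.7%, 62.1 to 96.3%), against 38.7% of 522 such other promoters. The 2 without the letters were FLCN and GUSB. In the 13 windows the summit lay a median of 16.0 bp from the nearest centre of CACGTG with TGFB1 (0 to 111 bp) and 13 bp in vehicle (0 to 130 bp). Other promoters with both had medians of 26 and 20 bp. FNIP1 was the farthest in each list, with its summits after the start and its letters at -175 and -94.

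**Figure D4:**
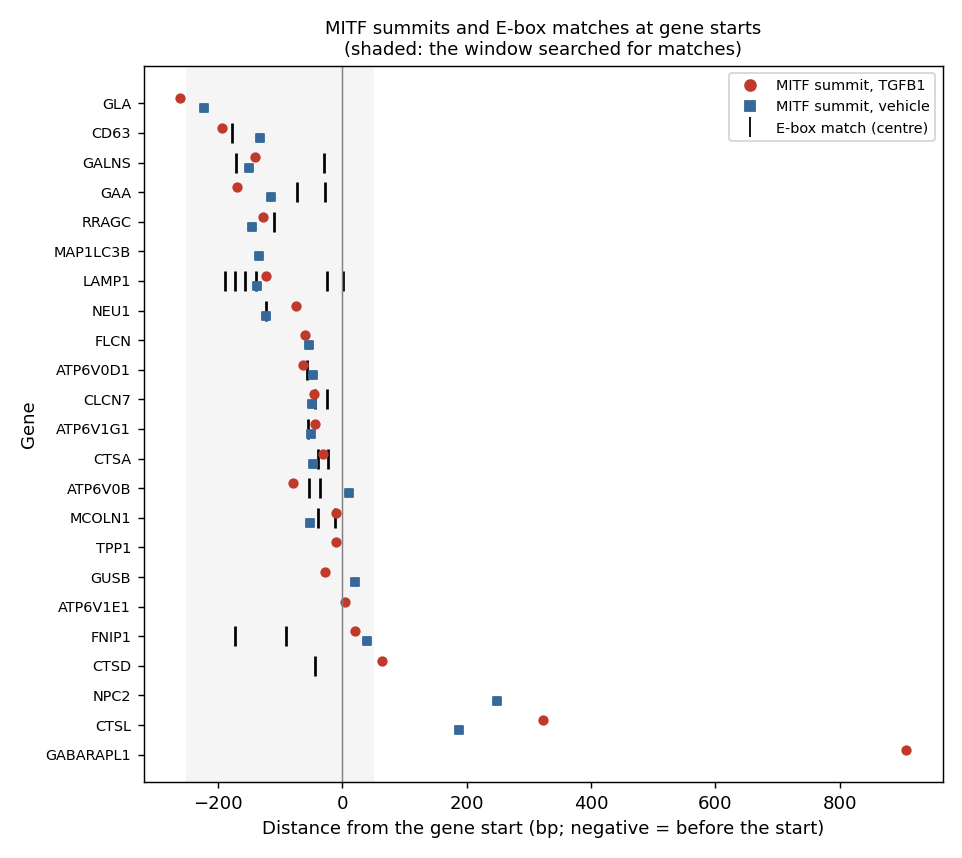
Position of MITF summits (circles with TGFB1, squares in vehicle; 1 library each) and centres of CACGTG (bars) relative to the gene start in bp, for the members with a known start and a summit within 1 kb of it; matches were searched in the shaded window of 250 bases before to 50 after the start. Most summits lie within 50 bp of a bar, with FNIP1 and CTSD as the farthest.

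**Figure D5:**
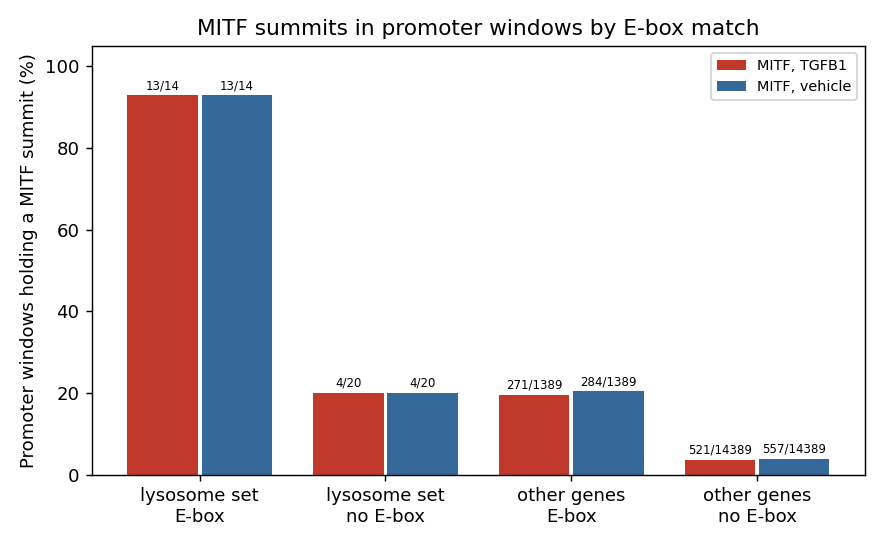
Promoter windows (%) holding a MITF summit with TGFB1 (left bars) and in vehicle (right bars), for the 34 members and 15778 other genes with and without CACGTG in the window; counts stand above the bars. Members with the letters reach 13 of 14 in each list, other genes with them 19.5% with TGFB1 and 20.4% in vehicle.

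Most MITF sites at these genes were called in both treatments. A MITF peak that overlapped between the treatments was present at 28 members (53.8%, 40.5 to 66.7%), against 12.8% of other genes and 13.3% of those of similar length. Peaks called with TGFB1 alone lay at 10 members (19.2%, 10.8 to 31.9%), beside 10.7% of other genes, and peaks called in vehicle alone lay at 14 (26.9%, 16.8 to 40.3%), beside 12.8%. Of the members' peaks, 34 of 45 with TGFB1 (75.6%) and 34 of 50 in vehicle (68.0%) had a partner, beside 54.4% and 47.4% of the lists. The unpaired peaks had -log10 p of 6.04 to 16.9 for the 11 called with TGFB1 alone and of 4.91 to 19.6 for the 16 called in vehicle alone. The lists had median -log10 p values of 11.2 with TGFB1 and 10.9 in vehicle, and all member peaks 16.4 and 15.4. Most unpaired peaks lay below both medians of their treatment, so they were mainly the weaker ones. There were exceptions on either side, and the weakest member peak with TGFB1 (CTSL, 5.21) was a paired one.

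By gene, 32 members had MITF in both lists, 3 with TGFB1 and not in vehicle, 5 in vehicle and not with TGFB1, and 12 in neither. These classes were not counted as such over other genes. MITF in at least 1 list was, split by SMAD2/3 with TGFB1. It lay at 50.0% of other genes with SMAD2/3 and 22.8% of those without, beside 89.5% and 69.7% of members. The 3 with TGFB1 were ATP6V1E1, subunit E of V1 (fold enrichment 5.99, -log10 p 8.79, at the start), GABARAPL1, a ubiquitin-like protein of the autophagosome (5.07 and 6.86, 0.907 kb into the gene), and NPC1. NPC1, the cholesterol exporter of the lysosome membrane, had 10.0 and 16.9 at a peak beyond the far end of the gene that is shared with the window of RMC1. The 5 in vehicle were ATP6AP1, a V-ATPase accessory protein (5.31 and 7.16), ATP6V1B2, subunit B (7.83 and 13.5), and CTSZ, cathepsin Z (6.55 and 10.3). NPC2, the cholesterol-binding protein of the lumen (4.29 and 6.08), and UVRAG, a subunit of a phosphatidylinositol kinase complex of autophagy (6.42 and 9.77, and a second peak with 5.74 and 8.14), complete them. With 1 library each, there is no check on whether a peak listed in 1 treatment would be listed there again.

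In 4 of the 32 genes the lists marked different places. CTSB, cathepsin B, had a TGFB1 peak 6.99 kb from its nearer gene end (6.70 and 9.82) and a vehicle peak at 0.125 kb (5.31 and 7.16). CTSD had its TGFB1 peak at the start (5.89 and 9.90) and its vehicle peak 3.31 kb into the gene (4.68 and 6.97). TPP1, tripeptidyl peptidase, had its TGFB1 peak at the start (7.85 and 15.2) and its vehicle peak 7.37 kb away, past the end of the gene and in the windows of ILK and TAF10 among others (5.31 and 7.16). PSAP, the precursor of the saposins that activate sphingolipid hydrolases, had TGFB1 peaks at 4.08 and 9.33 kb outside the gene (6.76 and 10.3; 7.10 and 12.3) and a vehicle peak 0.47 kb inside it (9.20 and 15.1). All 4 genes therefore count as bound in both lists without a common site.

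The 12 genes without MITF in either list were ARSA, SGSH (both sulfatases), CTSK, CTSS (cysteine cathepsins), LAMP2, SCARB2 (a membrane receptor that delivers glucocerebrosidase), OSTM1 (the partner subunit of CLCN7), ATP6V0A1, ATP6V0D2, ATP6V1D, WIPI1 (a phosphoinositide-binding autophagy protein) and FNIP2. The 6 of them with a promoter window (ATP6V0A1, ATP6V1D, FNIP2, OSTM1, SCARB2 and WIPI1) held no CACGTG there. Only 8.80% of other promoters hold these letters, so their absence from 6 windows says little. All but CTSK had H3K27ac in both lists. CTSK, known as a protease of osteoclasts, had 1 weak H3K27ac peak in vehicle (3.11 and 3.80) and none with TGFB1.

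SMAD2/3 reached the lysosome genes about as often as it reached other genes. The 19 members with a summit after TGFB1 held 28 peaks, none of which overlapped a vehicle peak. Peaks called with TGFB1 alone lay at 27.4% of other genes, so the members' 36.5% was not set clearly apart. Peaks called in vehicle alone lay at 0.397% of other genes and shared peaks at 1.43%, and none lay at a member, which at such background shares says little. The 28 peaks had a median fold enrichment of 4.56, against 5.71 for the list of 11406, and 1 of them (3.57%) was among the strongest 10% of the list. They fell on 4 of 7 genes of V0 and its accessory protein and on none of the 7 V1 genes, on 5 of 8 proteases, 3 of 11 other hydrolases, 3 of 9 membrane and lumen proteins, 3 of 5 autophagy genes and 1 of 5 nutrient-sensing genes. Credited to the nearest gene alone, 13 members (25.0%) had one, against 22.9% of other genes.

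The strongest SMAD2/3 peak of the set lay 9.48 kb past UVRAG, at chr11:76153406-76153944, with a fold enrichment of 12.8 and a -log10 p of 29.7 (rank 990). It overlapped no MITF, ATF3 or JUNB peak. UVRAG, the longest member, had 2 weaker ones (4.77 and 6.85; 4.71 and 10.1). SQSTM1 had 8.62 and 26.5 at the intragenic site that also carried its strongest MITF peak, and 2 weaker peaks near its start (4.05 and 9.23; 3.62 and 5.69). CD63 had 9.19 and 24.9 at its start and 4.90 and 10.9 downstream. CTSA, cathepsin A, had 7.87 and 17.2 at 6.19 kb before its start, where 4 other genes share the window, and 2.97 and 5.57 at the start itself. PSAP had 6.94 and 15.4 at 9.36 kb outside the gene, and CTSD 7.58 and 14.8 at 8.80 kb before its start. These 6 genes held the SMAD2/3 peaks of highest -log10 p.

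The other 13 genes had weaker peaks. MAP1LC3B, the autophagosome protein LC3B, had 6.73 and 11.3 at 15.4 kb from its start and 4.41 and 7.68 near it. ATP6V0C had 5.43 and 11.3, and ATP6V0D2 had 7.10 and 10.9 with a second peak of 4.04 and 5.23. SCARB2 had 7.10 and 10.9, TPP1 5.68 and 9.56, and LAMP1 4.35 and 9.05 at its promoter. Apart from MAP1LC3B, these come from the membrane, protease and V0 groups. GALNS had 4.13 and 7.99, FLCN 4.08 and 7.05, GAA (acid alpha-glucosidase) 3.45 and 6.51, and CTSL (cathepsin L) 3.27 and 5.88. ATP6V0B had 3.09 and 5.27, CTSZ 3.20 and 5.10 with a second peak of 2.66 and 4.61, and ATP6V0D1 3.36 and 4.99.

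SMAD2/3 and MITF met at several of these genes. Of the 19 genes with SMAD2/3 after TGFB1, 17 had MITF in at least 1 list, the exceptions being ATP6V0D2 and SCARB2. That was 89.5% (68.6 to 97.1%), beside 50.0% of other genes with SMAD2/3. Among the 33 members without SMAD2/3 it was 23 (69.7%, 52.7 to 82.6%), beside 22.8% of other such genes, and the intervals of the members with and without SMAD2/3 overlap. Counted over peaks with TGFB1, 10 of the 28 SMAD2/3 peaks (35.7%, 20.7 to 54.2%) overlapped a MITF peak, beside 11.9% of all SMAD2/3 peaks. The same 10 overlaps made up 22.2% (12.5 to 36.3%) of the 45 MITF peaks, beside 26.4% of all MITF peaks, so from the MITF side the members were not above their list. They lay at ATP6V0B, CD63, CTSA, CTSL, GAA and LAMP1 within 1 kb of the start, and farther away at ATP6V0C, FLCN, PSAP and SQSTM1. Of the first 6, all but CTSL held CACGTG in the promoter window. So did 13 of the 15 members with a MITF summit in that window in both lists (86.7%), whether or not SMAD2/3 was there. H3K27ac covered 26 of the 28 SMAD2/3 peaks (92.9%, 77.4 to 98.0%, list 75.7%), JUNB 17 (60.7%, list 62.0%) and ATF3 12 (42.9%, list 45.9%). In vehicle no member had a SMAD2/3 summit, so the 0 of 50 MITF peaks that overlapped SMAD2/3 follow from that count. Beside the 8.31% of the MITF list they give no separate contrast.

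With TGFB1, ATF3 and JUNB were each at most members, somewhat above the shares of all other genes. Among genes with vehicle H3K27ac near an end they were close to other genes of similar length. ATF3 was at 77.6% of such members, beside 74.8%, and JUNB at 83.7%, beside 80.0%. In vehicle JUNB was at 65.4% of members, beside 55.9%, and ATF3 at 48.1%, beside 48.8%. With TGFB1 37 members had both (71.2%, 57.7 to 81.7%), beside 59.3% of other genes. ATF3 peaks called with TGFB1 alone lay at 41 members (78.8%, 66.0 to 87.8%), an interval above the 63.5% of other genes. That interval includes the 67.2% of other acetylated genes of similar length. Vehicle-only ATF3 peaks lay at 18 (34.6%), beside 31.5%, and shared ones at 13 (25.0%), beside 30.8%. JUNB peaks called with TGFB1 alone lay at 38 (73.1%, 59.7 to 83.2%), beside 62.2%. Vehicle-only JUNB peaks lay at 20 (38.5%), beside 28.8%, and shared ones at 25 (48.1%), beside 43.9%. Both TGFB1 libraries were the deeper ones, and the part of depth in these counts was not tested. MITF peaks at members overlapped JUNB in 23 of 45 cases with TGFB1 (51.1%) and 12 of 50 in vehicle (24.0%), beside 50.4% and 26.9% of the lists. They overlapped ATF3 in 13 with TGFB1 (28.9%) and 4 in vehicle (8%), beside 36.8% and 16.3%.

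The highest ATF3 peaks of the set lay more than 1 kb from a gene start, and those at MAP1LC3B and PSAP were marked by other antibodies too. ATF3 was highest 3.62 kb before the start of MAP1LC3B, with a fold enrichment of 47.5 and a -log10 p of 245 with TGFB1 and 25.7 and 56.6 in vehicle. That site also held a MITF peak with TGFB1 alone (8.73 and 15.3), a JUNB peak and an H3K27ac peak with TGFB1 alone (5.43 and 11.7). In vehicle its ATF3 peak overlapped none of the other 4 antibodies. PSAP had ATF3 at 46.1 and 236 with TGFB1 and 17.8 and 34.8 in vehicle, at the site 9.34 kb outside the gene where SMAD2/3 and MITF were called with TGFB1 alone. JUNB there had 18.4 and 97.8 with TGFB1 and 19.1 and 58.0 in vehicle, on H3K27ac in each treatment. NPC1 had 42.2 and 187 with TGFB1 and 14.3 and 27.1 in vehicle, deep inside the gene.

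SQSTM1 carried strong peaks of both AP-1 factors. Its highest ATF3 peak lay 33.6 kb from the start, past the gene and within 10 kb of MRNIP, with 26.7 and 101 with TGFB1 and 14.5 and 29.5 in vehicle. Its highest JUNB peak was at the intragenic MITF site, with 21.2 and 140 with TGFB1 and 25.2 and 103 in vehicle. At that site all 5 antibodies had a peak with TGFB1, and all but SMAD2/3 in vehicle. The other genes with the highest JUNB peaks were CD63 (22.1 and 111, at its promoter) and CTSD (21.4 and 95.7) with TGFB1, and CTSB (16.5 and 53.9) and ATP6V0D2 (14 and 42.9) in vehicle. Across the set, 14 genes had all 5 antibodies within 10 kb with TGFB1: ATP6V0B, ATP6V0D1, CD63, CTSA, CTSD, CTSL, FLCN, GAA, GALNS, LAMP1, MAP1LC3B, PSAP, SQSTM1 and TPP1. That was 26.9% of the set (16.8 to 40.3%), beside 8.92% of other genes. At the other end, ARSA, ATP6AP1 and OSTM1 had H3K27ac alone with TGFB1 (5.77%), beside 6.01% of other genes.

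H3K27ac marked nearly the same members in both treatments. Shared H3K27ac peaks lay at 51 members (98.1%, 89.9 to 99.7%), beside 79.2% of other genes, peaks called with TGFB1 alone at 22 (42.3%, 29.9 to 55.8%), beside 31.5%, and peaks called in vehicle alone at 13 (25.0%, 15.2 to 38.2%), beside 30.6%. The intervals of the single-treatment shares include those of all other genes, and the TGFB1 one stops just above the 29.5% of other genes of similar length. Peaks called with TGFB1 alone that had a -log10 p of at least 10 lay at 6 genes, and no vehicle-only peak at a member reached that value. Other genes were not counted at this threshold, so the contrast is not a result about the members. The highest of these TGFB1-only peaks was past UVRAG, at chr11:76153808-76154753 (fold enrichment 12.1, -log10 p 39.8), and overlapped the SMAD2/3 peak there. That SMAD2/3 peak also overlapped a neighbouring H3K27ac peak found in both treatments (19.5 and 112 with TGFB1). A second one near it, with 7.09 and 19.4, overlapped ATF3 and JUNB. CTSA had 6.33 and 16.8, ATP6V1H (subunit H of V1) 6.46 and 14.5, PSAP 6.85 and 12.7, ATP6V0D1 4.83 and 12.4, and MAP1LC3B 5.43 and 11.7. The UVRAG peak was the one of these 7 that overlapped SMAD2/3.

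A further list of 120 lysosome, sorting, V-ATPase, autophagy and nutrient-sensing genes was counted in the same windows. MITF was at 47 of them with TGFB1 (39.2%) and at 49 in vehicle (40.8%), beside the 21.6% and 23.1% of other genes above, and a shared MITF peak was at 33 (27.5%). Nutrient-sensing genes had MITF at 10 of 16 with TGFB1 and 11 in vehicle. The 10 with TGFB1 were LAMTOR1, LAMTOR2 and LAMTOR5 of the Ragulator scaffold, RRAGB, the mTORC1 subunit MLST8, its activator RHEB, the RHEB inhibitors TSC1 and TSC2, and NPRL2 and NPRL3 of the GATOR1 complex, which restrains mTORC1. All 10 had a shared MITF peak, and RPTOR was the one added in vehicle. Membrane and sorting genes had MITF at 13 of 22 with TGFB1 and 11 in vehicle, and hydrolases at 13 of 34 with TGFB1 and 11 in vehicle. The differences between these groups were not tested.

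Autophagy genes had it at 10 of 37 with TGFB1 and 14 in vehicle. The 11 remaining V-ATPase genes, many of them tissue-specific isoforms, had it at 1 with TGFB1 (ATP6V1F) and 2 in vehicle (ATP6V1F and ATP6V1E2), a share below that of the 14 V-ATPase genes of the set. SMAD2/3 was at 38 of the 120 with TGFB1 (31.7%) and at 1 in vehicle (0.833%), that of MAN2B1, a lysosomal mannosidase. Other genes had SMAD2/3 at 28.2% and 1.78%. ATF3 was at 93 with TGFB1 (77.5%) and 64 in vehicle (53.3%), beside 70.1% and 48.8% of other genes, in libraries that differed 4.41-fold in depth. JUNB was at 97 with TGFB1 (80.8%) and 84 in vehicle (70.0%), beside 72.4% and 55.9%. H3K27ac was at 119 in each (99.2%), beside 80.9% and 80.7%.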

How the data were processed

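Per the labels, 16 ChIP-seq samples of A375 cells comprise 10 immunoprecipitated libraries, each with 1 peak list, and 6 inputs, which were not analysed here. Although the design mentions triplicates of a technical kind, 1 library is labelled for each antibody and treatment. Per the submitters' processing notes, reads were aligned with Bowtie to GRCh38 and peaks were called with MACS2 2.0. The lists were called per library. The control for calling and the treatment of duplicate reads are not given in the sources used here. The fold enrichment is a deposited ratio at the summit, and the -log10 p and -log10 q values are those the authors deposited. The deposited score column was left aside.

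Counts, overlaps and figures were made with Python 3.11.15, pandas 2.3.3, numpy 2.4.6, scipy 1.17.1, statsmodels 0.14.6 and matplotlib 3.10.9. Overlap meant at least 1 bp. Depth was implied from fold enrichment and -log10 p, assuming 1 pseudocount and a genome of 2.7 Gb, with the shortest peak as read extension. Pileups came out whole for 100.0% of peaks within 0.001 of the deposited -log10 p. Summit counting and pileup recovery were tested on simulated data. Gene bodies came from the RefSeq table and promoter windows and strands from RefSeq sequences (GRCh38.p14) for 34 of the 52 genes. For the other genes distances are from the nearer gene end.

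The members, role groups, pathway list and named genes were chosen with earlier results of these data known. Named were the 12 members with the highest MITF -log10 p per list, members with MITF in 1 treatment or in none, all members with SMAD2/3, the 4 highest for ATF3 and JUNB per list, and members with H3K27ac of 1 treatment at a -log10 p of at least 10. Some members named beyond this rule were chosen after their values were seen. The search for TGACTCA and the nearest-gene count were added after seeing the data. Comparison of fold enrichments between lists was left out, since the lists differ in depth.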

Additional observations from a re-analysis of the deposited data

How the results depend on the processing

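Over 46 results, 120 of 168 alternative values stayed close to the value reported and 48 moved. A count was close within 1.5 times, and a share of other genes within its own counting interval, which is narrow. Below, where 2 values stand together the first is with TGFB1 and the second in vehicle. No paired analysis was possible because each antibody and treatment has 1 library and the input numbers pair nothing. With gene bodies alone, MITF was at 11 members with TGFB1 and 14 in vehicle (21.2% and 26.9%, against 11.0% and 12.1% of other genes), SMAD2/3 at 9 with TGFB1, and ATF3 at 26 and 16. Within 1 kb of the start or, without strand, of a gene end, SMAD2/3 was at 9 with TGFB1, ATF3 at 22 and 4, and JUNB at 26 and 13. With 50 kb on each side, SMAD2/3 was at 29 with TGFB1 and ATF3 at 39 in vehicle. With a -log10 q of at least 5, SMAD2/3 was at 12 with TGFB1 (also for peaks called with TGFB1 alone) and ATF3 at 15 in vehicle. Vehicle-only peaks then lay at 8 members for ATF3, 6 for JUNB and 8 for H3K27ac, and TGFB1-only H3K27ac at 14. With a fold enrichment of at least 6, SMAD2/3 was at 9 with TGFB1, ATF3 at 12 in vehicle and JUNB at 24 and 18. With lists cut to the shorter of each antibody, SMAD2/3 with TGFB1 was at 2 (2 for TGFB1 alone) and TGFB1-only JUNB at 22. Among the 5000 strongest peaks, SMAD2/3 was at 6 with TGFB1, ATF3 at 6 and 5, JUNB at 8 and 9, and H3K27ac at 24 and 27. The vehicle SMAD2/3 list holds fewer peaks than that, so all of it counts and none lies at a member. Reciprocal overlap of 50% put vehicle-only H3K27ac at 26. In acetylated genes of similar length the shares were 27.8% and 29.9% for MITF, 31.4% and 2.02% for SMAD2/3, 74.8% and 50.1% for ATF3, and 80.0% and 59.8% for JUNB. For H3K27ac, by which those genes were chosen, they were 99.6% and 100%. With the summit inside the partner peak, 2 vehicle MITF peaks met ATF3. Other letters gave 5 windows (CATGTG), 4 (the palindrome) and 2 (TGACTCA, chosen after seeing the data). Fewer peaks or narrower windows lower these counts by construction; the cause of other moves was not tested. Counts of members with MITF stayed within 1.5 times under every alternative other than gene bodies alone.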
